A study of Mus musculus with 99 samples.

Results

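The comparison is that of the exercise effect in the gastrocnemius with the exercise effect in the quadriceps of 18-month-old mice, taken within the number that each library title carries. Every number with both a gastrocnemius and a quadriceps library in the count table was used, which gave 12 exercised and 9 sedentary numbers, or 42 of the 97 libraries in that table. For each gene the quadriceps value was subtracted from the gastrocnemius value of the same number on the log2 scale, and these differences were compared between exercised and sedentary numbers. A positive result is therefore an exercise effect that was higher in the gastrocnemius, and a negative one an effect that was higher in the quadriceps. All mice were wild-type C57BL/6 males, and all were perfused with PBS before the muscles were frozen. Sedentary mice are the controls. The labels say neither what the exercise was, nor that a number marks an animal, nor that replicates came from separate cages, so p-values measure the spread between these numbers. A further 2 gastrocnemius libraries of 18-month mice were left out, because their quadriceps partners were not analysed here.

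The gastrocnemius is a calf muscle that extends the ankle, and the quadriceps is the front thigh muscle that extends the knee. In mice both are built mostly of fast fibres, which carry the myosin heavy chains Myh4, Myh1 and Myh2, with few slow fibres, which carry Myh7. Endurance exercise is known to shift fast fibres from Myh4 towards Myh1 and Myh2, to raise mitochondrial enzymes and the oxygen store myoglobin, and to remodel the collagen matrix around the fibres.

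The libraries held 29.06 to 62.77 M counts each. Muscle transcripts dominated them, with creatine kinase (Ckm) at 8834 to 16775 CPM (counts per 1e6 counts) and Myh4 at 29502 to 71876 CPM, while the neuronal gene Snap25 stayed between 0.287 and 2.96 CPM and the myelin gene Mbp between 16.4 and 48.6 CPM. The gastrocnemius minus quadriceps difference in total count was 4.25 ± 8.79 M in exercised (SD, n = 12) and 2.32 ± 5.03 M in sedentary numbers (SD, n = 9; two-sided exact permutation test, p = 0.628, adjusted over 4 measures 0.838). Without number 9.1, described next, the exercised value was 2.01 ± 4.31 M (SD, n = 11) and lay below the sedentary one. The difference in the mitochondrially encoded share was -2.69 ± 3.22 and -2.66 ± 2.46 percentage points (exact permutation p = 0.981), and that in genes detected was 734 ± 771 and 293 ± 523 (exact permutation p = 0.158, adjusted 0.630).

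The libraries labelled gastrocnemius 9.1 and quadriceps 9.1, both exercised, went against their muscle labels. Tbx1, a T-box transcription factor known from muscle development, lay between 3.05 and 5.99 CPM in the gastrocnemius and between 29.7 and 48.3 CPM in the quadriceps of the other 20 numbers, but stood at 25.2 CPM in the library labelled gastrocnemius 9.1 and at 4.45 CPM in the one labelled quadriceps 9.1. Hoxd8, a homeobox gene of position along the limb, lay at 37.1 to 59.04 CPM in the other gastrocnemius and at 7.71 to 16.4 CPM in the other quadriceps libraries. It was at 8.22 CPM in the library labelled gastrocnemius 9.1 and at 48.6 CPM in its partner. Hoxd9 and Hoxc6, further genes of that family, were exchanged in the same way, at 2.84 and 12.8 CPM in the library labelled gastrocnemius 9.1 and at 18.9 and 5.24 CPM in the one labelled quadriceps 9.1. Across 15229 genes, the difference between the muscles in number 9.1 correlated at -0.379 with the mean difference of the others, against 0.438 to 0.761 for each of the other 20 numbers. Genes are not independent replicates in this value. Of 88 genes (out of 15229) whose levels in the muscles did not overlap in the other 20 numbers, 76 had the opposite sign in 9.1. These 88 were picked for their muscle difference, and the share of opposite signs over all genes is not given here. The labels were kept, and the counts, the gene lists and the paired differences of the named genes are given with number 9.1 and without it.

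**Figure D1:**
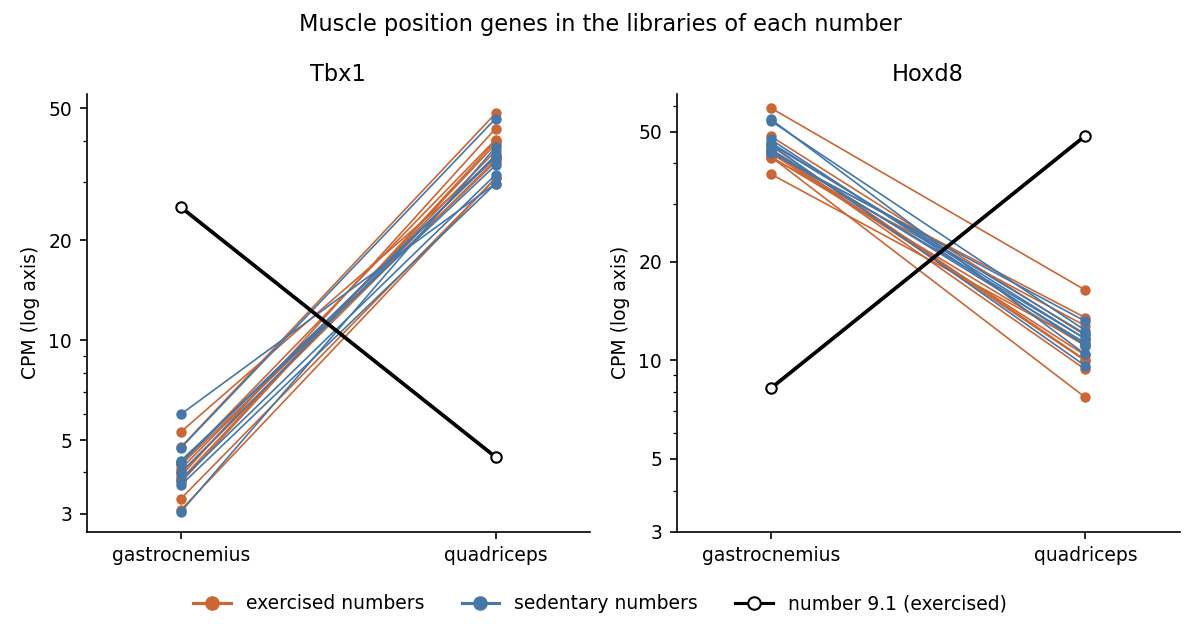
Levels of Tbx1 (left) and Hoxd8 (right) in the gastrocnemius and quadriceps library of each number, in CPM on a log axis. Each line joins the libraries of 1 number, and the black line with open points is number 9.1, which runs against the other 20 lines in both panels.

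No gene passed the test of the difference in exercise effect between the muscles. With edgeR's quasi-likelihood test, 0 of 15229 genes were called at an adjusted p under 0.05 (0%), and the lowest adjusted p was 0.104. Unadjusted, 941 genes (6.18%) had a p under 0.05, of which 620 (4.07%) were positive and 321 (2.11%) negative; 761 would be the count if no gene differed. Without number 9.1, 0 of 15182 genes were called, and 1137 (7.49%) had an unadjusted p under 0.05, 688 (4.53%) positive and 449 (2.96%) negative. An exact permutation test over the numbers, run for each gene, called 0 genes with 21 numbers and 0 without 9.1, with 947 and 1111 genes at an unadjusted p under 0.05.

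The data bound the size of any difference for most genes. The median standard error (SE) of the difference was 0.0966 on the log2 scale, and the 95% interval reached a median of 0.198 to each side. For 73.2% of genes this interval lay wholly within 0.5 of 0, and for 93.4% within 1. Estimates above 0.5 in size were found for 498 genes and above 1 for 45. Without number 9.1 the median reach was 0.191, and 73.9% and 94.4% of intervals lay within those bounds.

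Within each treatment the muscles themselves differed widely. In sedentary numbers 1987 genes (13%) were higher and 1815 (11.9%) lower in the gastrocnemius, or 25% of genes called by edgeR's quasi-likelihood test. In exercised numbers 3012 (19.8%) were higher and 2849 (18.7%) lower, or 38.5%. These sets shared 2926 genes, which are 77.0% of the sedentary and 49.9% of the exercised calls, and 2924 of them had the same sign. The exercised set rests on 12 numbers and the sedentary set on 9, so their sizes are not compared. Without number 9.1 the counts were 2249 (14.8%) higher and 2086 (13.7%) lower in sedentary numbers, or 28.6%, and 3530 (23.3%) and 3219 (21.2%) in exercised numbers, or 44.5%, with 3561 genes in both sets and 3560 of these of the same sign.

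Taken muscle by muscle, exercise was accompanied by more calls in the quadriceps than in the gastrocnemius. In the quadriceps 177 genes rose (1.16%) and 72 fell (0.473%), 1.64% called in all, and in the gastrocnemius 27 rose (0.177%) and 6 fell (0.0394%), 0.217% in all. The muscles' libraries are separate but carry the same numbers. Their sets shared 14 genes, or 42.4% of the gastrocnemius and 5.62% of the quadriceps calls. These counts moved with single numbers. Without 9.1 371 genes rose (2.44%) and 177 fell (1.17%) in the quadriceps, 3.61% in all, including 247 of the former 249. In the gastrocnemius 2 rose and 0 fell (0.0132%), with 1847 genes (12.2%) at an unadjusted p under 0.05. The gastrocnemius count was also 2 without 4.3, without 5.2 or without 6.2, and 3 to 5 without 6.4, 7.4, 8.2 or 9.2. A larger count in one muscle is not a difference between muscles: for the 249 quadriceps genes the median size of the exercise effect was 0.415 in the quadriceps and 0.246 in the gastrocnemius, 244 had the same sign in both, and 63 (25.3%) had an unadjusted p under 0.05 in the paired comparison. Over all genes this share was 6.18%. Without number 9.1 it was 196 of 548 quadriceps genes (35.8%), against 7.49% of all genes. The choice of the quadriceps genes used the quadriceps values that enter that comparison, so these shares have no test.

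**Figure D2:**
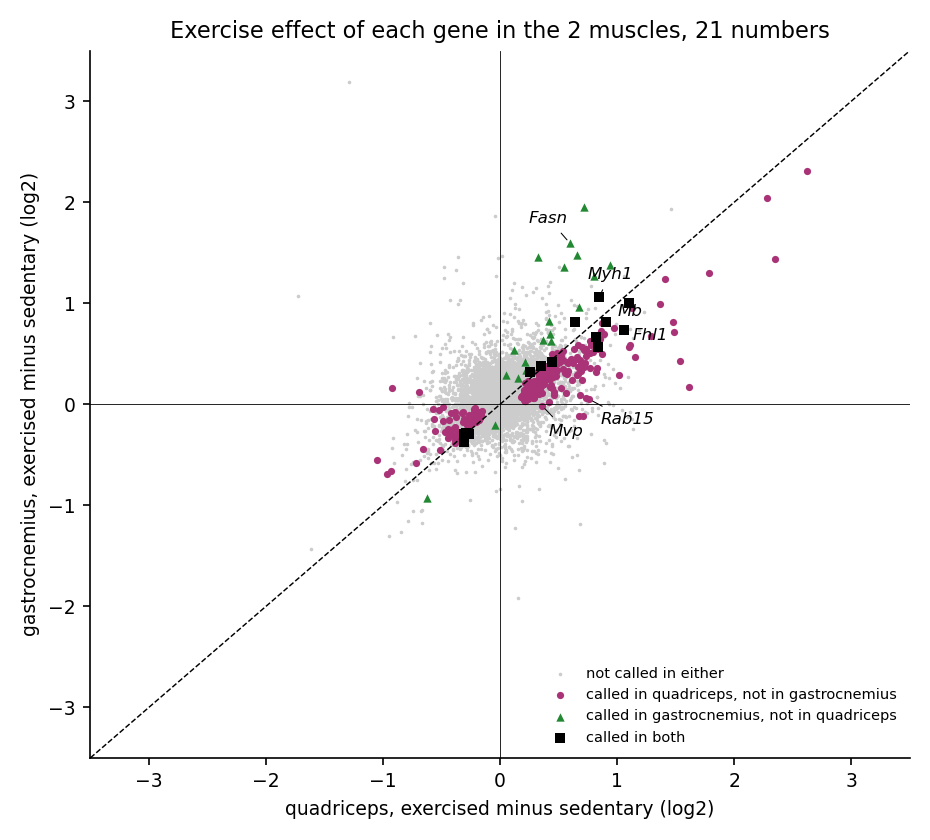
Exercised minus sedentary log2 difference of each gene in the quadriceps (x axis) and in the gastrocnemius (y axis), from the fit with 21 numbers. Coloured points are genes called at an adjusted p under 0.05 in one or both muscles, the dashed line marks equal effects, and most of the 249 quadriceps genes lie on the same side of 0 in both muscles.

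Mb and Myh1 rose in both muscles, and neither passed the paired test. Myoglobin (Mb, chromosome 15, 77015487 to 77050670, minus strand, GRCm38), which stores oxygen in oxidative fibres, had a lowest, median and highest level of 1577, 1653 and 1972 CPM in sedentary and of 1775, 2749 and 5031 CPM in exercised gastrocnemius libraries. In the quadriceps these were 1413, 1998 and 2244 CPM in sedentary and 2015, 3711 and 5520 CPM in exercised libraries. The ranges of exercised and sedentary libraries overlapped in both muscles, with most exercised libraries above the sedentary ones. Mb rose by 0.82 in the gastrocnemius (adjusted p = 0.00778) and by 0.91 in the quadriceps (adjusted p = 0.000358; edgeR's quasi-likelihood test), and the difference between these effects was -0.13 ± 0.15 (SE; 95% interval -0.45 to 0.18). Without number 9.1 the difference was -0.25, with a 95% interval of -0.45 to -0.05 that left out 0. Its unadjusted p was then 0.0170 and its adjusted p 0.600 by edgeR's quasi-likelihood test. Of the exon bases of Mb, 31.9% overlap genes on the opposite strand in GENCODE M21, and whether the counting used strand is not known here.

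Myh1 (chromosome 11, 67200052 to 67224575), the IIx myosin of fast fibres, had a lowest, median and highest level of 2280, 3161 and 3578 CPM in sedentary and 3291, 6383 and 12318 CPM in exercised gastrocnemius libraries. The corresponding quadriceps levels were 4305, 5237 and 5791 CPM in sedentary and 4429, 9471 and 13610 CPM in exercised libraries. The highest gastrocnemius value belongs to the library labelled 9.1, and without it the highest was 9255 CPM. Myh1 rose by 1.06 in the gastrocnemius (adjusted p = 0.00251) and by 0.85 in the quadriceps (adjusted p = 0.00512). The paired difference was 0.18 ± 0.21 (SE; 95% interval -0.26 to 0.61), and 0.03 without number 9.1 (interval -0.26 to 0.32). Mb and Myh1 were the 2 genes called in the gastrocnemius without number 9.1.

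Myh2 (chromosome 11, 67171027 to 67197517), the IIa myosin of oxidative fast fibres, rose by 0.83 in the quadriceps (adjusted p = 0.00033) and by 0.57 in the gastrocnemius (adjusted p = 0.044, and 0.0932 without number 9.1). In the quadriceps the exercised libraries, at 2390 to 5195 CPM, did not overlap the sedentary ones, at 1807 to 2273 CPM. In the gastrocnemius they did, at 2249 to 5418 and 1739 to 2827 CPM. The paired difference of Myh2 was -0.29 ± 0.15 (SE; adjusted p = 0.818), and -0.38 ± 0.13 without 9.1 (unadjusted p = 0.00667, adjusted 0.587 by edgeR's quasi-likelihood test). Fhl1, a LIM domain protein of the sarcomere, rose by 1.06 in the quadriceps (adjusted p = 0.000167) and by 0.73 in the gastrocnemius (adjusted p = 0.0305, and 0.0727 without 9.1), with a paired difference of -0.36 (adjusted p = 0.788), or -0.42 without 9.1 (adjusted p = 0.587). Myh4, the IIb myosin, was 0.33 lower in exercised gastrocnemius and 0.21 lower in exercised quadriceps, passed in neither, and had a paired difference of -0.11 (95% interval -0.36 to 0.14). Myosin heavy chain genes are close copies of each other, and how reads shared by copies were counted is not given, so single myosins carry that uncertainty.

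The slow myosin Myh7 had a paired difference of -0.30 (95% interval -0.70 to 0.11), and the slow troponin Tnnt1 one of -0.21 (interval -0.53 to 0.10). Ppargc1a, a coactivator of mitochondrial gene expression, was at -0.03 (interval -0.19 to 0.12). The glycolytic regulator Pfkfb3 was at -0.07 (interval -0.32 to 0.17). Without number 9.1 Myh7 was at -0.37, Tnnt1 at -0.25, Ppargc1a at -0.05, Pfkfb3 at 0.02 and Myh4 at -0.05, with none passing. Fasn, the fatty acid synthase, was far less bounded, at 0.49 (interval -0.30 to 1.28), or 0.27 without 9.1. It rose by 1.597 in the gastrocnemius with 21 numbers (adjusted p = 0.0305) and was 1.11 higher without 9.1 (adjusted p = 0.079). The library labelled gastrocnemius 9.1 held 494 CPM of Fasn, and the one labelled quadriceps 9.1 held 177 CPM. The other exercised libraries held 33.4 to 148 CPM in the gastrocnemius and 180 to 388 CPM in the quadriceps. The lipid genes Acly, Slc25a1 and Mid1ip1 were also called as higher in exercised gastrocnemius with 21 numbers, by 1.38, 1.27 and 0.66, and none was called without 9.1, at 0.90, 0.94 and 0.62 (adjusted p = 0.0601, 0.0601 and 0.0647 by edgeR's quasi-likelihood test).

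Other genes that rose in the quadriceps lay below 0 in the paired comparison, without passing it. They were chosen for their quadriceps effect, which enters that comparison, so the sign is a description. Myom3, an M-band protein, rose by 0.87 in the quadriceps (adjusted p = 0.00046), and its sedentary and exercised quadriceps libraries overlapped only slightly, at 52.0 to 80.5 and 71.9 to 149.6 CPM. It was 0.50 higher in the gastrocnemius without passing (adjusted p = 0.0858), with a paired difference of -0.41 ± 0.18 (SE). Smtnl1, a regulator of contraction, rose by 0.77 in the quadriceps and had a paired difference of -0.29, and the light chain Myl12a rose by 0.43 with a difference of -0.18. Ocrl, an inositol phosphatase, fell by 0.32 in the quadriceps (adjusted p = 0.00106) and had a paired difference of 0.14. Without number 9.1 the paired differences of Myom3, Smtnl1, Myl12a and Ocrl were -0.48, -0.33, -0.23 and 0.14, with none passing. In the gastrocnemius Wbp1l and Polr3b fell by 0.30 and 0.20 with 21 numbers (adjusted p = 0.0299 for each), and neither was called without 9.1 (adjusted p = 0.0601 for each, edgeR's quasi-likelihood test).

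The genes with the smallest p in the paired comparison are given next as genes that did not pass. Mvp (chromosome 7, 126986860 to 127014621, minus strand), the main protein of the vault particle, had the smallest. Its gastrocnemius minus quadriceps difference had a lowest, median and highest value of 0.07, 0.29 and 0.34 in sedentary and of -0.48, -0.13 and 0.15 in exercised numbers. The gastrocnemius was the higher muscle in 9 of 9 sedentary and in 3 of 12 exercised numbers, and the ranges overlapped only between 0.07 and 0.15. In CPM, the sedentary quadriceps libraries stood lowest, at 35.9, 43.0 and 47.9 (lowest, median and highest). The exercised quadriceps stood at 42.1, 52.7 and 71.7, the sedentary gastrocnemius at 44.9, 50.3 and 56.4 and the exercised gastrocnemius at 43.5, 48.7 and 66.9. The paired difference was -0.37 ± 0.07 (SE), with an unadjusted p of 6.8e-06 and an adjusted p of 0.104 by edgeR's quasi-likelihood test. Without number 9.1 it was -0.36 (adjusted p = 0.160). Mvp rose by 0.36 in the quadriceps (adjusted p = 0.00716) and was at -0.01 in the gastrocnemius (adjusted p = 0.952). In GENCODE M21, 4.54% of its exon bases are shared with Pagr1b on the same strand.

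Rab15 (chromosome 12, 76797960 to 76822908, minus strand), a small GTPase of endosome recycling, was next by p, and as for Mvp the sedentary quadriceps libraries had the lowest median, here at a low level. The sedentary quadriceps libraries held 1.37, 1.65 and 1.91 CPM (lowest, median and highest) and the exercised ones 2.12, 2.65 and 3.46 CPM, so these groups did not overlap. The sedentary and exercised gastrocnemius libraries overlapped nearly throughout, at 2.29 to 3.70 and 2.17 to 4.27 CPM. The difference within numbers ran from 0.56 to 1.24 in sedentary and from -0.44 to 0.90 in exercised numbers. Rab15 rose by 0.76 in the quadriceps (adjusted p = 0.000109) and was 0.05 higher in the gastrocnemius. The paired difference was -0.71 ± 0.15 (SE; adjusted p = 0.235), and -0.74 without 9.1 (adjusted p = 0.161).

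The other 8 genes named for a negative paired difference did not pass either. Nnt, the mitochondrial transhydrogenase that makes NADPH, was at -0.27 ± 0.07 (SE). Its difference between muscles was 0.25 to 0.71 in sedentary and -0.16 to 0.34 in exercised numbers, and it rose by 0.43 in the quadriceps (adjusted p = 0.00256). Micu2, a regulator of mitochondrial calcium uptake, was at -0.20, and rose by 0.30 in the quadriceps (adjusted p = 0.00399). Nestin (Nes), an intermediate filament protein, was at -0.27 and rose by 0.44 in the quadriceps (adjusted p = 0.00405). Myoz2, a Z-disc protein of slow fibres, was at -0.45 and rose by 0.56 in the quadriceps (adjusted p = 0.0103). Nnt, Micu2, Nes and Myoz2 passed in the quadriceps without 9.1 as well, and in the gastrocnemius none of them passed with or without it. The cardiac and embryonic troponin Tnnt2 and the perinatal myosin Myh8 were at -0.50 and -0.38, passing in neither muscle. Llgl2, a protein of cell polarity, was at -0.30, with the gastrocnemius higher in 8 of 9 sedentary and in 0 of 12 exercised numbers. Extl1, a glycosyltransferase of heparan sulphate, was at -0.20. The adjusted p of these 8 genes was 0.626 or 0.669. Without number 9.1 they lay between -0.46 and -0.20, with adjusted p-values of 0.424 to 0.545.

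The 10 genes named for a positive paired difference each had an adjusted p of 0.626. Lyve1, a hyaluronan receptor of lymphatic vessels and of some tissue macrophages, had a difference between muscles of -1.45, -0.74 and 0.29 in sedentary and of -0.84, 0.02 and 0.42 in exercised numbers (lowest, median and highest). The sedentary numbers were lower, with 1 of 9 above 0 against 6 of 12 exercised numbers, and the ranges overlapped. Its paired difference was 0.69 ± 0.18 (SE). Slc43a3, a purine transporter, had the smallest p among the positive genes, 0.000262 unadjusted. It was at 0.33 ± 0.08 (SE), with the gastrocnemius higher in 2 of 9 sedentary and 10 of 12 exercised numbers. Rin2, a regulator of endosomal Rab proteins, was at 0.32, with 0 of 9 and 7 of 12. Pdk4, the kinase that shuts pyruvate out of the mitochondrion, was at 0.37 ± 0.10 (SE). It was 0.84 lower in exercised quadriceps and 0.51 lower in exercised gastrocnemius, passing in neither (adjusted p = 0.164 and 0.443), and its levels spread widely, from 97.5 to 774 CPM over sedentary and from 125 to 582 CPM over exercised libraries. Klf4, a transcription factor of the early response, was at 0.36. Dnm1, Mta3, Ildr2, Igsf10 and Fam114a1 lay between 0.34 and 0.65. Without number 9.1 these 10 genes lay between 0.31 and 0.67, with adjusted p-values of 0.424 to 0.545.

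**Figure D3:**
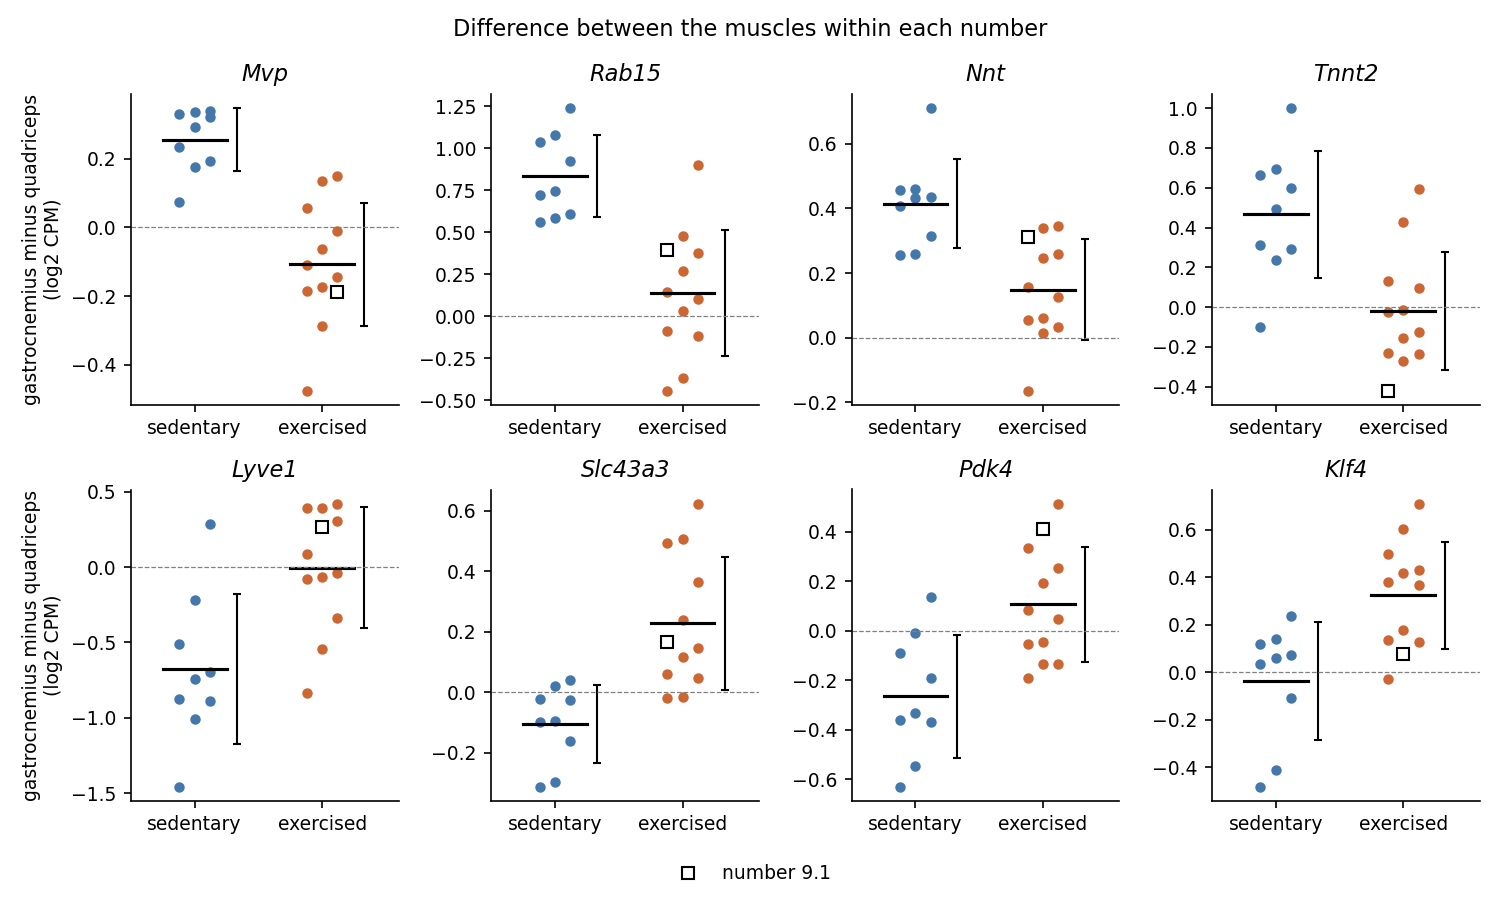
Gastrocnemius minus quadriceps difference within each number, in log2 CPM, for 8 genes named for their small p or fixed for naming. Points are numbers, the bar is the group mean, the error bar 1 SD, and the open square number 9.1; for Mvp all 9 sedentary numbers lie above 0 and 9 of 12 exercised numbers below it.

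Gene lists of fibre types, metabolism and other cell types were described by counts, and 0 members of any list passed the paired test. Over all genes, 7690 differences were positive and 7539 negative, with a median of 0.00, so lists are read against an even split; members of a list vary together and are not independent.

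Matrix genes made by fibroblasts, the cells that lay down collagen, were mostly positive. Of 23 tested, 22 were positive, 13 of them with an unadjusted p under 0.05 (against 4.07% of all genes), and the median was 0.28. The type I collagen chains Col1a1 and Col1a2 were at 0.49 and 0.35, the collagen-binding proteoglycan decorin (Dcn) at 0.29, dermatopontin (Dpt) at 0.37 and the collagen cross-linking enzyme Lox at 0.33. The basement membrane collagen Col4a2 was the negative member, at -0.03, and its partner Col4a1 was at 0.05. In the muscles' own fits the members' median exercise effect was 0.32 in the gastrocnemius and 0.00 in the quadriceps. Of the members 0 were called in either, against 0.217% and 1.64% of all genes. The summed level of the list in the gastrocnemius had a lowest, median and highest value of 957, 1306 and 1402 CPM in sedentary and of 1146, 1585 and 2176 CPM in exercised libraries. In the quadriceps it was 948, 1518 and 2044 CPM in sedentary and 1123, 1485 and 1695 CPM in exercised libraries. The difference of summed levels within numbers was -0.23 ± 0.36 in sedentary (SD, n = 9) and 0.06 ± 0.23 in exercised numbers (SD, n = 12). Without 9.1 the exercised value was 0.03 ± 0.21 (SD, n = 11). The sedentary number 9.3, at -1.10, lay far below the other 8, at -0.34 to 0.20. Without 9.3, 21 members were positive, 4 had an unadjusted p under 0.05 (against 3.04% of all genes) and the median was 0.17. Without 9.1 it was 22, 10 and 0.27. In bulk muscle, a change in the number of fibroblasts and one in the RNA per fibroblast cannot be told apart.

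Tendon genes followed in sign. Of 15 tested, 13 were positive, with a median of 0.24 (0.28 without 9.1, 0.21 without 9.3). Of the positive members 5 had an unadjusted p under 0.05 (against 4.07% of all genes). Without 9.3 it was 3 (against 3.04%). The muscle difference of the summed level was -0.56 ± 0.28 in sedentary and -0.33 ± 0.40 in exercised numbers (SD, n = 9 and 12). Their ranges overlapped widely, at -1.02 to -0.25 and -1.23 to 0.15. Comp and Tnc, glycoproteins of loaded tendon, were at 0.59 and 0.57, and the tendon proteoglycans Kera and Fmod at 0.43 and 0.27. In sedentary numbers 10 of the 15 were called as lower in the gastrocnemius than in the quadriceps (11.9% of all genes were), and 0 as higher (13% of all genes were). Where in a muscle the piece of tissue was taken is not stated, and the part of tendon in these differences was not tested. Adipocyte genes were positive for 12 of 15, with a median of 0.33, or 0.14 without 9.1. Their summed level did not follow. Its muscle difference was 0.47 ± 0.19 in sedentary and 0.39 ± 0.31 in exercised numbers (SD, n = 9 and 12), the latter 0.47 without 9.1. The cartilage and bone list (9 tested) had a median of 0.51, or 0.15 without 9.1, and the neutrophil list (5 tested) 0.57, or 0.25. For cartilage and bone the summed level differed by 0.12 in sedentary and 0.09 in exercised numbers (0.10 without 9.1). For neutrophils it differed by -0.59 and -0.21 (-0.38 without 9.1). The part of these cells in the matrix differences was not tested.

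Slow fibre genes were all negative. All 12 tested lay below 0, between -0.45 and -0.04, with a median of -0.24; 2 of them, Myoz2 and the slow regulatory light chain Myl2, had an unadjusted p under 0.05 (against 2.11% of all genes). Without number 9.1 all 12 were negative, with a median of -0.28 and 4 under 0.05 (against 2.96% of all genes). Without 9.3, 1 member was positive and the median was -0.18. Over the alternative settings the median ran from -0.28 to -0.10, and Myoz2 from -0.45 to -0.12. In the quadriceps, 3 members rose with exercise (177 genes, or 1.16%, rose over all genes): Myoz2 by 0.56, Myl2 by 0.42 and the calcium-binding protein Casq2 by 0.50. The gastrocnemius had 0 calls among them (27 genes, or 0.177%, rose there over all genes). Median effects were 0.21 in the quadriceps and 0.01 in the gastrocnemius. The summed level was 784 to 1299 CPM in sedentary and 1005 to 1660 CPM in exercised quadriceps libraries, and 1166 to 2115 and 1189 to 1976 CPM in the gastrocnemius. The muscle difference of the sum was 0.46 ± 0.27 in sedentary and 0.22 ± 0.31 in exercised numbers (SD, n = 9 and 12), and these ranges overlapped. Without 9.1 the exercised value was 0.18 ± 0.29 (SD, n = 11).

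Genes of embryonic and regenerating muscle were negative for 13 of 15, with a median of -0.29 and 6 unadjusted p under 0.05 (against 2.11% of all genes). These 6 were the embryonic and perinatal forms Tnnt2, Myh8 and Myh3, at -0.50, -0.38 and -0.58, the cardiac actin Actc1 at -0.57, the fusion protein Mymk at -1.26 and the cadherin Cdh15 at -0.14. None passed in either muscle, where the members' median effect was 0.20 in the quadriceps and -0.16 in the gastrocnemius. The muscle difference of the summed level was 0.07 ± 0.15 in sedentary and -0.32 ± 0.20 in exercised numbers (SD, n = 9 and 12). All 12 exercised numbers were below 0, from -0.73 to -0.03. Of the sedentary numbers 7 of 9 were above it, in a range of -0.19 to 0.29 over all 9. The 12 include number 9.1 as labelled, whose position genes went against its labels. Without 9.1 the exercised value was -0.30 ± 0.20 (SD, n = 11), over the same range. Without number 9.1, 11 of 15 members were negative, 5 had an unadjusted p under 0.05 (against 2.96% of all genes) and the median was -0.17. Without 9.3, 4 had one (against 1.81%) and the median was -0.25. The stem cell genes Pax7 and Myf5 were at 0.05 and -0.03.

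**Figure D4:**
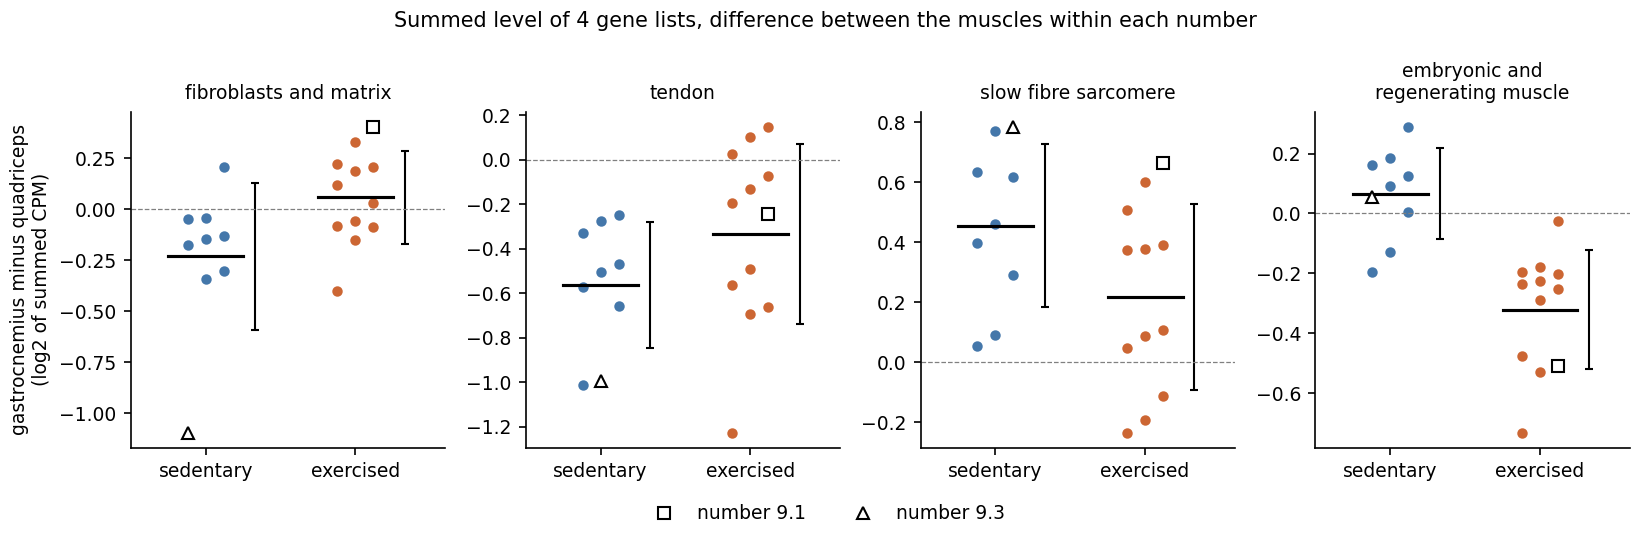
Gastrocnemius minus quadriceps difference of the summed level of 4 gene lists within each number, in log2 of summed CPM. Points are numbers, bars group means and error bars 1 SD; the sedentary number 9.3 (open triangle) is lowest for the fibroblast and matrix list, and the open square is number 9.1.

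Nuclear genes of oxidative phosphorylation, the respiratory chain and ATP synthase, lay slightly below 0. Of 42, 39 were negative, with a median of -0.06 and a range of -0.15 to 0.02, and 0 had an unadjusted p under 0.05. The members' median exercise effect was 0.21 in the quadriceps and 0.14 in the gastrocnemius. In the quadriceps 3 were called as higher (against 1.16% of all genes), and in the gastrocnemius 0 were (against 0.177%). Without number 9.1 all 42 were negative at a median of -0.10. The members' median exercise effects were then 0.23 in the quadriceps and 0.13 in the gastrocnemius. In the quadriceps 21 of 42 rose (against 2.44% of all genes), and in the gastrocnemius 0 were called (against 0.0132%). Without 9.3, 9 of 42 paired differences were positive and their median was -0.02. Genes of the tricarboxylic acid cycle, which feeds that chain, were negative for 12 of 17 (15 without 9.1), with medians of -0.03 and -0.07. Of these genes 0 had an unadjusted p under 0.05 with 21 numbers. Without 9.1 it was 4, all negative (against 2.96% of all genes). Mitochondrially encoded mRNAs were negative for 8 of 13 (11 without 9.1), with medians of -0.03 and -0.10. The sign of that median turned with single numbers, from -0.14 without 5.2 to 0.06 without 8.4, and it was 0.18 with the first part of the number added to the fit. Fatty acid uptake and oxidation had medians near 0 on both, at 0.02 and -0.03, but the sign of the majority turned. With 21 numbers 17 of 26 members were positive, and without 9.1 18 of 26 were negative. Negative members with an unadjusted p under 0.05 were 0 and 3 (against 2.11% and 2.96% of all genes). Positive ones were 1 and 1 (against 4.07% and 4.53%).

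Of the fast fibre list 15 of 17 were negative, with a median of -0.11 (-0.08 without 9.1), and of the glycolysis and glycogen list 22 of 24, with a median of -0.10 in both. Heat shock and chaperone genes were negative for 19 of 20 at a median of -0.09 (-0.02 without 6.1), and immediate early genes positive for 17 of 21 at 0.13. Endothelial genes had a median of 0.05, satellite cell genes one of -0.03 and macrophage genes one of -0.07. Without number 9.1 the medians of these 5 lists were -0.10, 0.16, 0.03, 0.00 and -0.01, in the same order. Single numbers moved some of these medians, the fast fibre list to -0.07 without 8.4, the endothelial list to 0.01 without 8.2 and the macrophage list to -0.17 without 7.3. In the macrophage list, the lysosomal and phagocyte genes Trem2 and Ctss were at -1.02 and -0.70, and Lyve1 and Cd163 at 0.69 and 0.33 (unadjusted p under 0.05 for all 4, against 4.07% of all genes on the positive and 2.11% on the negative side). Without 9.1 they were at -0.67, -0.47, 0.67 and 0.28, and Cd163 had an unadjusted p of 0.0696 by edgeR's quasi-likelihood test.

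**Figure D5:**
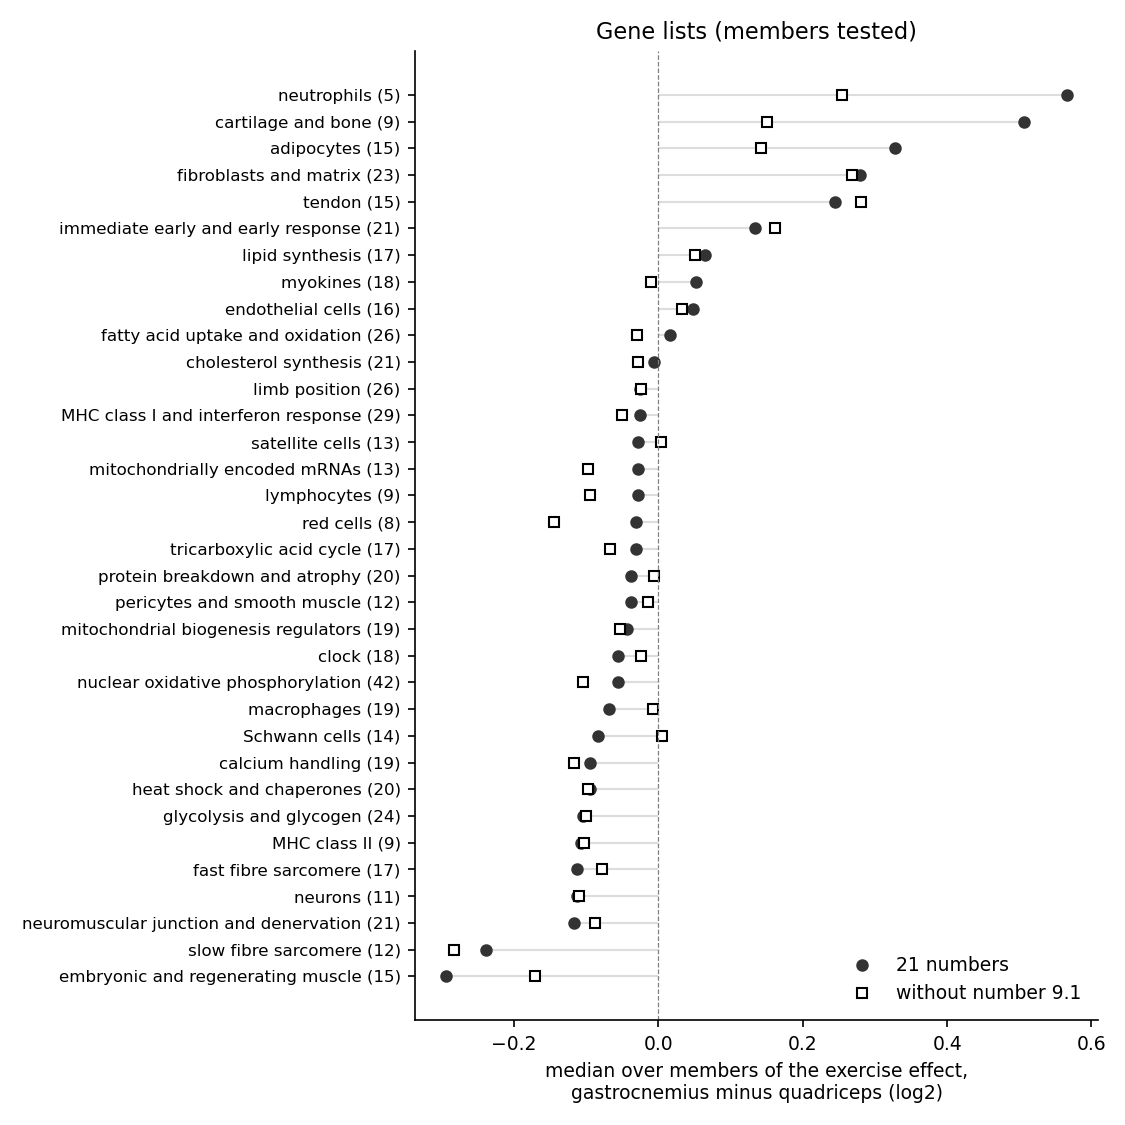
Median over the members of each gene list of the exercise effect in gastrocnemius minus quadriceps, on the log2 scale, with the number of members tested in brackets. Filled points are 21 numbers and open squares the fit without number 9.1; the open squares lie nearer to 0 for the neutrophil, cartilage and bone, and adipocyte lists.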

How the data were processed

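Per the labels' protocols, RNA of both muscles was taken up in Trizol, and polyadenylated RNA was prepared for sequencing with the TruSeq RNA kit, version 2. The authors deposited whole-number counts per gene, not normalized, in a table that also gives gene lengths as deposited by the authors; STAR 2.5.2b and GRCm38.p5 are named in the submitters' processing notes. How reads were counted, and whether by strand, is not given in the sources used here. Groups were 12 exercised and 9 sedentary numbers with 1 library per muscle, of 29.06 to 62.77 M counts, and columns without a sample numbered 0. Libraries of a group differed by a chi-square per gene of at least 8.83, so none was deposited under several names within its group. That value does not cover libraries of different groups.

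Counts were fitted with edgeR 4.0.16 (R 4.3.3): TMM factors, filterByExpr over the 4 groups (minimum count 10, minimum total count 15), and the quasi-likelihood F test with Benjamini-Hochberg adjustment over all genes tested, called under 0.05. The paired fit held the number as a block, the muscle, and muscle by treatment, which was the term tested. Each muscle's own exercise effect came from a fit of the 4 groups without the block. CPM values are TMM-scaled, and log2 CPM used a prior count of 2. All p-values are two-sided. The fits were tested on simulated data with 200 changed genes.

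The members and gene lists (34 lists, 637 symbols, 636 matched) were chosen with earlier results of these data known. Genes named are, per direction, up to 15 called genes whose log2 CPM averaged 1 or more, filled to 10 by smallest p and given as not passing, plus 10 fixed genes. Genes named for their own exercise effect in 1 muscle, and list members, were chosen after their values were seen. As no gene passed the paired test, no promoter is shown. Positions are from GENCODE M21. Alternatives were DESeq2 1.42.0, limma 3.58.1 (voom with the number as a random effect, and per-number differences), RLE factors, other filters, no block, the first part of the number, mitochondrial counts taken out, a gene length term, exact permutation, and each number left out.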

Additional observations from a re-analysis of the deposited data

Results flagged for a closer look

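Single numbers stood apart in 10 of 82 groups of 9 sedentary numbers in which 1 value was compared with the others. For a single group chance gives about 1 in 20. The groups hold the same 9 numbers and partly the same genes, so they are not independent of each other. Number 5.2 did so for the gastrocnemius minus quadriceps difference in the mitochondrially encoded share, at -8.97 percentage points against -3.17 to -0.66 for the other 8. It did so for the share of the 10 most abundant genes, at -6.10 points against -2.05 to 0.38, and for the summed mitochondrially encoded mRNAs, at -1.22 on the log2 scale against -0.43 to -0.08. Nnt was also highest in 5.2, at 0.71 against 0.25 to 0.46.

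Number 9.3 had the lowest muscle difference of summed fibroblast and matrix genes, at -1.10 against -0.34 to 0.20. It was lowest for cartilage and bone genes, at -1.05 against -0.05 to 0.66, and for neutrophil genes, at -1.55 against -0.84 to -0.19. It was highest for fatty acid uptake and oxidation, at -0.028 against -0.25 to -0.17, and lowest for Myh8, at -0.18 against 0.19 to 0.54. Number 9.2 was lowest for Llgl2, at -0.24 against 0.04 to 0.15.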

How the results depend on the processing

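The paired count of 0 called genes was also found with RLE factors, a mean CPM of at least 1, voom, limma on per-number differences, the first part of the number added, mitochondrial counts taken out, a gene length term and exact permutation. DESeq2 called 1 gene, Mvp at -0.37 (adjusted p = 0.00451), and without number 9.1 it called 2, Mvp and Rab15. The random-effect voom fit without 9.1 called 2, Rab15 and Fgf14. With no filter on low counts 82 genes were called (57 higher, 25 lower), all 82 among the genes tested with the filter; the prior degrees of freedom were then 155 over 28631 genes, against 7.59. Leaving out each number in turn gave 0 to 2 calls: Mvp without 5.4, 7.1 or 8.4, and Rab15 without 8.4.

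Same-numbered libraries deviated together in 19 of 21 pairs at r over 0.1 (median 0.228; -0.216 for 9.1 and 0.0876 for 9.3). Of the 21 libraries of each muscle, 17 gastrocnemius and 17 quadriceps libraries correlated best with their own number. The partner was sought only among numbers of the same treatment. This is a hint from the data and not from the design, since not every pair was over 0.1. With no replicate block the paired count was 0, with 487 genes at an unadjusted p under 0.05, and the muscles differed in 2545 genes in sedentary and 4355 in exercised numbers.

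Gastrocnemius exercise calls, 33 in the report, were 193 with DESeq2, 20 with no filter, 105 with the unpaired libraries added, 73 with DESeq2 without 9.1 and 9 with voom without 9.1, and ranged from 2 (without 9.1, 4.3, 5.2 or 6.2) to 202 over numbers left out, the highest without the exercised number whose quadriceps library detected the fewest genes. Quadriceps calls, 249, were 412 with DESeq2, 161 with no filter, 664 without 9.1 and that number, 781 with DESeq2 without 9.1 and 586 with voom without 9.1, and ranged from 102 (without 6.2) to 582 (without 5.4). The muscle difference counts ranged from 2833 to 4335 and from 4884 to 6749.

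The median of the cartilage and bone list, 0.51 in the report, was 0.12 with DESeq2 and 0.10 at a mean CPM of at least 1. Without 9.1 it was 0.071 with DESeq2, 0.086 with voom, 0.079 with limma on differences and -0.059 with the first part of the number added, where the adipocyte list was at 0.020. Small paired differences changed sign: Ppargc1a and Mb were at 0.022 and 0.049 with the first part of the number added, and Myh4 at 2.3e-05 without 9.1 and the number just described. Pfkfb3 was positive without 9.1 in 8 fits: 0.033 without that number as well, 0.017 with DESeq2, 0.026 with voom, 0.0201 with limma on differences, 0.0212 without the block, 0.0054 with the first part added, 0.0192 without mitochondrial counts and 0.0199 on the log2 CPM differences of the permutation test. Over numbers left out, Ppargc1a ranged from -0.067 to 0.012 and Pfkfb3 from -0.12 to 0.020. The exercised minus sedentary muscle difference ranged from -0.31 to 3.21 M in total count and from -0.82 to 0.43 percentage points in mitochondrially encoded share. For these changes the cause was not tested. The SE of the paired difference ran from 0.0585 at the 10th to 0.297 at the 90th percentile of genes.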
